A study of Oryza sativa with 24 samples.

Results

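Jasmonates are plant hormones made from linolenic acid of the chloroplast, and they act in wound and pathogen defence, in stamen and spikelet development and in leaf senescence. In their synthesis a lipoxygenase oxidises the fatty acid, allene oxide synthase and allene oxide cyclase turn the product into OPDA, and OPDA reductase and beta-oxidation make jasmonic acid, which a conjugating enzyme joins to isoleucine. Jasmonoyl-isoleucine is bound by an F-box protein of the COI1 family together with a JAZ repressor, the repressor is destroyed, and transcription factors such as MYC2 are released. A set of 9 genes of this route, fixed by their MSU identifiers, was followed here, and all 9 were among the 55801 genes listed. The set holds the allene oxide synthases AOS1 (LOC_Os03g55800) and AOS2 (LOC_Os03g12500), the cyclase AOC (LOC_Os03g32314), the OPDA reductase OPR7 (LOC_Os08g35740) and the conjugating enzyme JAR1 (LOC_Os05g50890). It also holds the hydroperoxide lyase HPL3 (LOC_Os02g02000), which draws on the same substrate as allene oxide synthase, the receptor genes COI1a (LOC_Os01g63420) and COI1b (LOC_Os05g37690), and MYC2 (LOC_Os10g42430).

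Expression was measured by RNA-seq in rice flag leaves taken at heading, in 6 groups of 2 libraries. CY84 is the unedited hybrid Chunyou84, from a japonica male-sterile mother (Chunjiang 16 A) and an indica-japonica intermediate father (C84). The Fix line is CY84 known for edits of REC8, PAIR1, OSD1 and MTL, by which plants set clonal seed. Fix T0 is the founding edited generation, Fix T1 to Fix T4 are its successive seed generations, screened for diploids, and seedlings were set out in a paddy field in Hangzhou. Roots carried CY84 and Fix T0 over while seed gave the later generations, so how plants were propagated cannot be told apart from generation. The seed-grown groups are all of the edited line, whereas CY84 is unedited and root-kept. Propagation and editing therefore cannot be told apart where seed-grown groups are set against CY84, alone or pooled with Fix T0. All groups come from 1 hybrid and 1 edited line. Nothing in the labels says that the 2 libraries of a group are separate plants, so a p-value measures only the spread between these samples, which may be technical.

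Values are FPKM, fragments scaled to gene length and to library size, so levels of different genes can be compared. Summed FPKM lay between 680768 and 767790 per library, and the spacing of low values put the relative depth of the libraries between 0.672 and 1 with CY84 replicate 1 set to 1, while absolute depth is unknown. As a check of the leaf label, 5 genes of carbon fixation and photosystems were abundant, with a sum of 21635 to 51782 FPKM. None of 5 anther genes reached 2 FPKM in any library, and their sum ran from 0.296 to 1.74 FPKM. Of the 2 root genes, LSI2 was listed at 0 throughout and LSI1 stood between 18.6 and 72.8 FPKM, and both seed genes, GLUA2 and WX, stayed at or below 6.67 FPKM. Fix T2 replicate 2 stood apart, with 19.3% of its summed FPKM in its 10 highest genes against 13.2% to 17.5% in the other 11 libraries.

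The 9 genes fell into an abundant majority and a scarce pair. COI1b was the highest of the 9 in all 12 libraries, with 93.9 ± 13.8 FPKM (SD, n = 12), and AOC was second in all 12, with 50.6 ± 6.87 FPKM. OPR7 followed at 36.3 ± 6.30 FPKM, COI1a at 33.7 ± 5.97 FPKM and HPL3 at 26.6 ± 6.92 FPKM. JAR1 stood at 17.2 ± 3.64 FPKM and MYC2 at 15.6 ± 3.72 FPKM. AOS1 and AOS2, the entry step of the jasmonate branch, were the lowest pair in all 12 libraries, at 3.55 ± 1.76 and 2.74 ± 2.29 FPKM. The neighbours OPR7 and COI1a, COI1a and HPL3, HPL3 and JAR1, JAR1 and MYC2, and AOS1 and AOS2 overlapped in their ranges, and so did AOC and OPR7, although AOC was the higher of that pair in 12 of 12 libraries. The ranges of COI1b and AOC and those of MYC2 and AOS1 did not overlap. The median of the 18871 genes with at least 1 FPKM in at least 2 libraries, which were the genes tested, was 6.19 FPKM. COI1b exceeded 94.6% of them and AOS2 exceeded 29.7%.

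**Figure D1:**
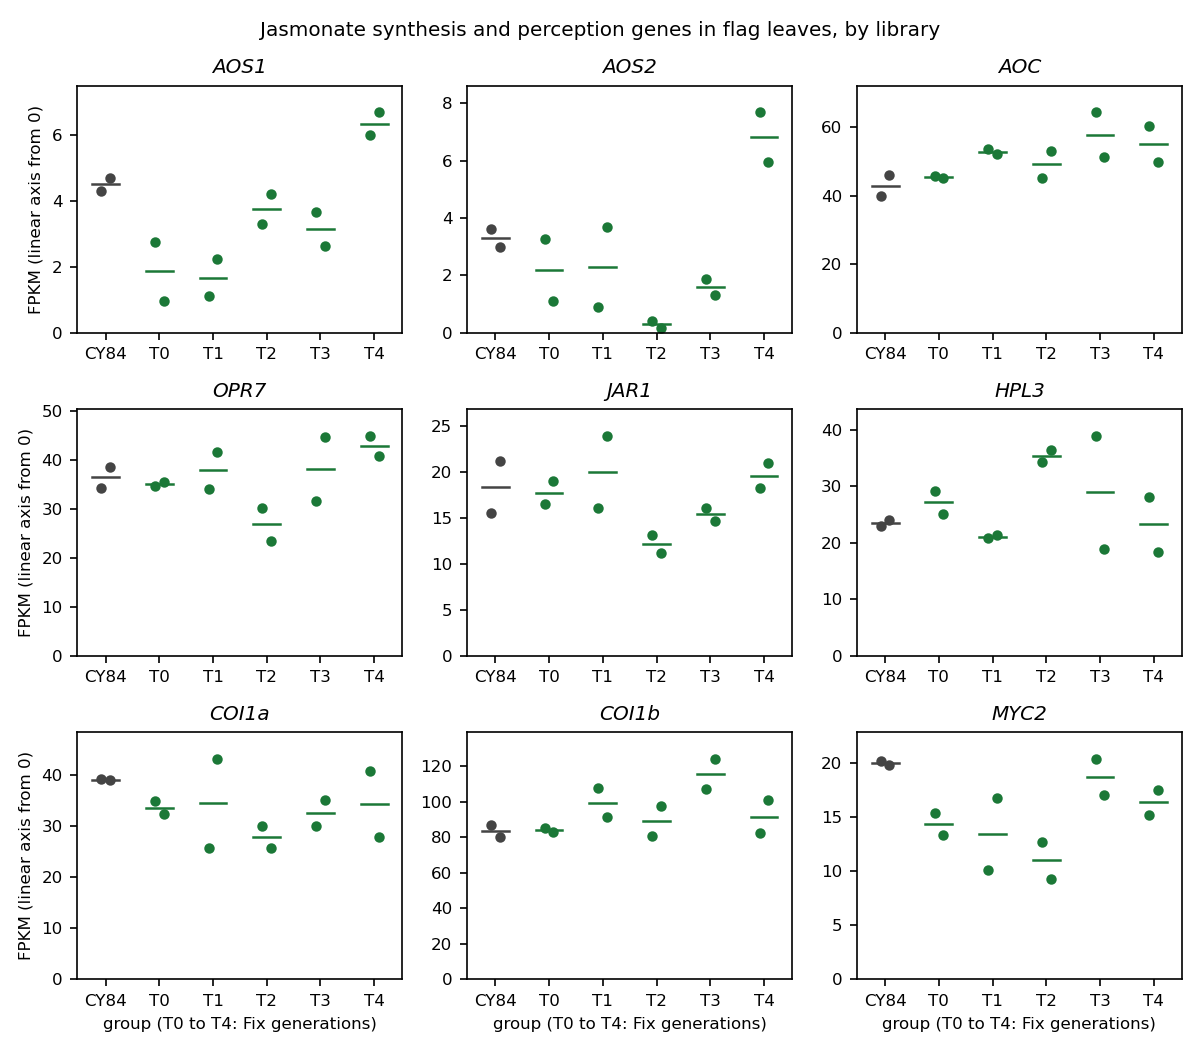
FPKM of the 9 genes in each library (points) with the group mean (line), on linear axes that start at 0; CY84 is grey and the Fix generations T0 to T4 are green. AOS1 and AOS2 had their 2 highest values in Fix T4, at 6.01 and 6.69 FPKM and at 7.68 and 5.96 FPKM, while COI1b stayed between 79.8 and 124 FPKM.

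The abundant genes were also the steady ones. The highest library held 1.55 times the lowest for COI1b, 1.61 times for AOC, 1.69 times for COI1a and 1.92 times for OPR7. For JAR1, HPL3 and MYC2 the same quotient was 2.15, 2.11 and 2.20. For AOS1 it was 6.90 and for AOS2 44.9. Over the libraries, the SD of log2(FPKM + 1) was 0.90 for AOS2, larger than in 96.9% of the tested genes, and 0.61 for AOS1, larger than in 85.4%. It was 0.19 for AOC, larger than in 2.81% of the tested genes, and 0.20 for COI1b, larger than in 4.18%. The widest variation was thus that of the scarce synthases, and the least that of the cyclase and the more abundant receptor gene.

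No gene of the set passed the test in any of the 9 comparisons made. Group means of log2(FPKM + 1) were compared with limma over all 18871 genes, and passing meant an adjusted p (Benjamini-Hochberg) under 0.05 within the comparison. For Fix T0 with CY84 0 of 9 passed, against 0.0901% of all tested genes. The corresponding background was 0.0795% for Fix T1 with Fix T0, 0.0901% for Fix T2 with Fix T0, 0.291% for Fix T3 with Fix T0 and 1.05% for Fix T4 with Fix T0. It was 1.88% for Fix T4 with CY84, 0.747% for the mean of the 5 Fix groups with CY84, 2.07% for the seed-grown groups with the root-kept groups and 1.91% for the F test of any difference among the 6 groups, and again 0 of 9 passed in each. At such a background 0 of 9 is no result about these genes, and it does not show that they were equal between groups.

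At an unadjusted p under 0.05 and with FPKM as deposited, AOS1 and AOS2 were the members that appeared. This threshold took 1 of 9 genes for Fix T0 with CY84 (AOS1, lower) against 3.87% of all tested genes, 2.00% counting lower ones alone. For Fix T2 with Fix T0 it took 2 of 9 against 19.0%, AOS1 among the 1.92% that were higher and AOS2 among the 17.1% that were lower. These shares turn on the scaling, since after rescaling by median-of-ratios factors they were 8.20% higher and 8.39% lower. For Fix T4 with Fix T0 it took AOS1 and AOS2, both higher, against 7.96% in either direction and 6.79% higher. In the F test it took the same 2 of 9 against 23.2%. It took 0 of 9 for Fix T1 with Fix T0 (background 5.04%), Fix T4 with CY84 (10.3%), Fix T3 with Fix T0 (16.4%), the Fix mean with CY84 (13.1%) and the seed-grown with the root-kept groups (19.3%). After rescaling, HPL3 also came under that threshold for Fix T2 with Fix T0. AOS1, COI1b and MYC2 did for Fix T3 with Fix T0, against 9.44% of all tested genes higher and 7.35% lower. AOC and COI1b did for seed-grown with root-kept groups, against 10.9% higher and 8.65% lower. HPL3 and MYC2 also did in the F test, against 3618 of 18687 genes. In each of these comparisons 0 of 9 passed after adjustment. The median size of the log2 difference over the 9 genes, beside that over all tested genes, was 0.20 against 0.20 for Fix T0 with CY84, 0.13 against 0.24 for Fix T1 with Fix T0, 0.37 against 0.39 for Fix T2 with Fix T0 and 0.22 against 0.37 for Fix T3 with Fix T0. It was 0.24 against 0.24 for Fix T4 with Fix T0, 0.23 against 0.25 for Fix T4 with CY84, 0.27 against 0.27 for the Fix mean and 0.18 against 0.24 for seed-grown with root-kept groups.

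AOS1 encodes an allene oxide synthase of the CYP74 family. It had 4.31 and 4.70 FPKM (CY84), 2.76 and 0.969 FPKM (Fix T0), and 1.11 and 2.23 FPKM (Fix T1). It then had 3.29 and 4.22 FPKM (Fix T2), 3.65 and 2.63 FPKM (Fix T3), and 6.01 and 6.69 FPKM (Fix T4). Both CY84 libraries thus stood above both libraries of Fix T0, Fix T1, Fix T2 and Fix T3, and both Fix T4 libraries stood above all others. In bulk leaf tissue, fewer cells expressing a gene and less RNA per cell cannot be told apart. The log2 difference of Fix T0 from CY84 was -1.02 (95% interval -1.79 to -0.24, limma adjusted p = 0.963), and that of Fix T4 from Fix T0 was 1.43 (0.66 to 2.20, limma adjusted p = 0.0968). The difference of Fix T2 from Fix T0 was 0.80 (0.03 to 1.57, limma adjusted p = 0.251), and the F test gave an adjusted p = 0.120.

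The AOS1 differences moved with the Fix T0 pair. For Fix T2 with Fix T0 the log2 difference was 1.27 without Fix T0 replicate 1 and 0.33 without replicate 2. Without Fix T0 replicate 1, the log2 difference of Fix T4 from Fix T0 was 1.90 (limma adjusted p = 0.110), and without Fix T0 replicate 2 it was 0.97 (limma adjusted p = 0.926). Against CY84, Fix T0 stood at -1.48 with only replicate 2 and at -0.55 with only replicate 1. AOS1 passed for Fix T4 with Fix T0 in 1 of 19 alternatives, the fit in which Fix T1 and T2 were dropped (limma adjusted p = 0.0488). In the F test it passed in the same fit (0.0460) and without Fix T1 replicate 2 (0.0442).

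AOS2, the second allene oxide synthase, spanned the widest range of the 9 genes. It had 3.62 and 2.98 FPKM (CY84), 3.26 and 1.10 FPKM (Fix T0), and 0.909 and 3.69 FPKM (Fix T1). Its lowest pair of values, 0.399 and 0.171 FPKM, was that of Fix T2, and it had 1.86 and 1.304 FPKM (Fix T3) and 7.68 and 5.96 FPKM (Fix T4). The Fix T2 pair lay below the other 10 libraries and the Fix T4 pair above the other 10, whereas the Fix T0 and Fix T1 pairs were each split, with 1 library above 3 FPKM and 1 near 1 FPKM. The log2 difference from Fix T0 was -1.22 for Fix T2 (95% interval -2.17 to -0.27, limma adjusted p = 0.201) and 1.38 for Fix T4 (0.43 to 2.33, limma adjusted p = 0.260). Against CY84, Fix T4 stood at 0.86 (-0.09 to 1.81, limma adjusted p = 0.561).

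Among the 9 genes AOS2 was nearest to passing the F test of the 6 groups, with an adjusted p = 0.0656 over all tested genes. It passed without Fix T1 replicate 1 (limma adjusted p = 0.0134), without Fix T1 replicate 2 (0.0115) and when Fix T1 and T2 were both dropped (0.0361), and did not in the other 15 alternatives. Without Fix T0 replicate 2 the difference of Fix T4 from Fix T0 was 0.87, and without Fix T0 replicate 1 it was 1.89. Without Fix T0 replicate 1 the difference of Fix T2 from Fix T0 was -0.72. Both Fix T2 libraries also had the highest summed level of the 5 leaf genes, 50330 and 51782 FPKM against 21635 to 45968 FPKM in the other 10, and the part of these genes in the AOS2 level was not tested. Rescaling by median-of-ratios factors, which were 0.899 and 0.727 in Fix T2, left the difference of Fix T2 from Fix T0 at -1.09, and a pseudocount of 0.1 in place of 1 put it at -2.45. Without Fix T2 replicate 2, the library that stood apart, it was -1.10.

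The 2 synthases differed most from each other in Fix T2. AOS1 held between 0.603 and 2.02 times the FPKM of AOS2 in the 10 libraries outside Fix T2, and 8.26 and 24.6 times in Fix T2. AOS1 in Fix T2 stood at 3.29 and 4.22 FPKM, above both Fix T0 libraries, while AOS2 stood below both. Absolute depth is unknown, so the counting error behind the 2 AOS2 values in Fix T2 is unknown too.

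**Figure D2:**
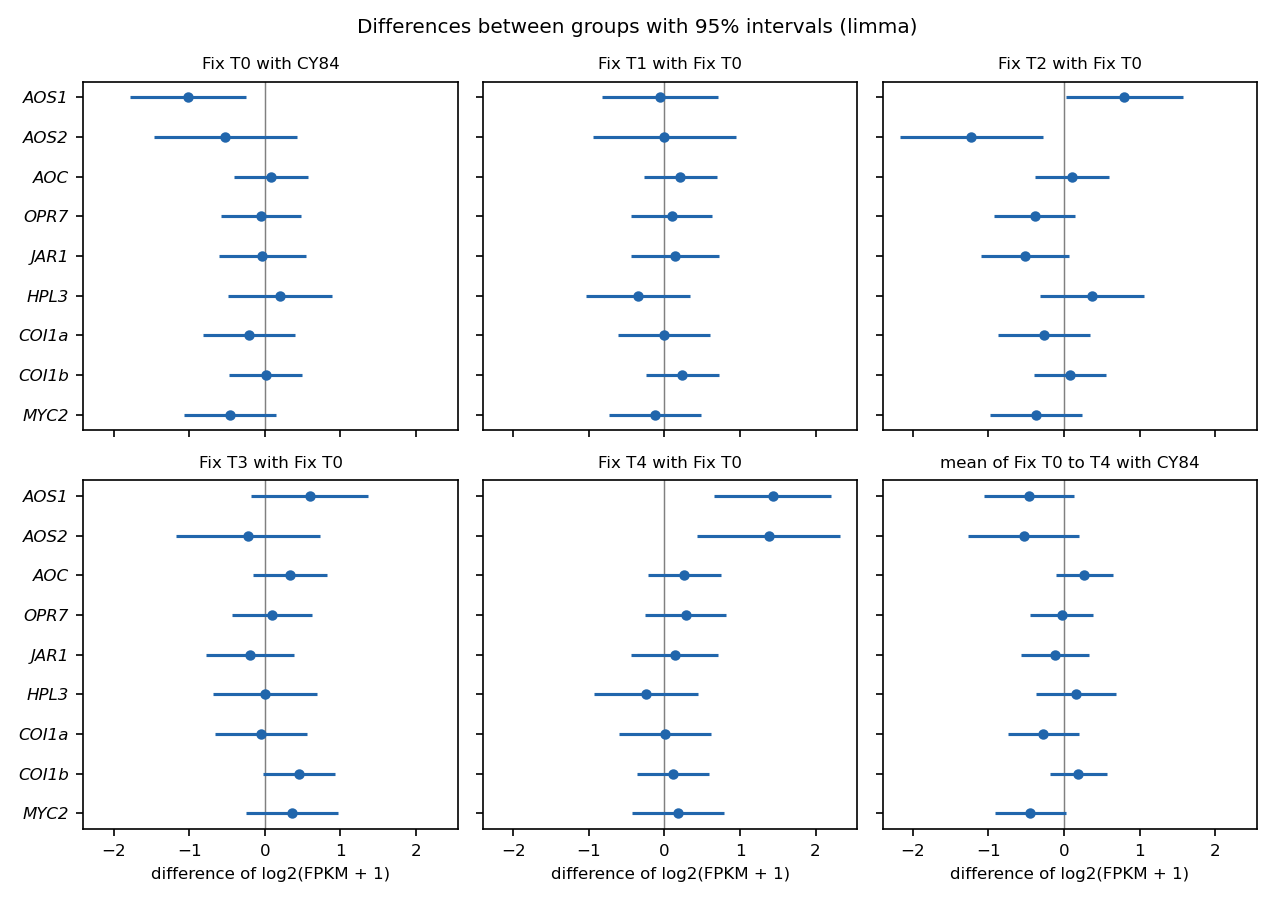
Difference of mean log2(FPKM + 1) (points) with its 95% interval (lines) for each of the 9 genes in 6 comparisons, from limma over all tested genes. The intervals of AOS1 and AOS2 lie above 0 for Fix T4 with Fix T0, at 0.66 to 2.20 and 0.43 to 2.33, but the adjusted p of both is above 0.05.

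Downstream of the synthases, the cyclase, the reductase and the conjugating enzyme varied less than the synthases. AOC, the allene oxide cyclase, had 39.9 and 46.1 FPKM (CY84), 45.9 and 45.1 FPKM (Fix T0), and 53.6 and 52.1 FPKM (Fix T1). It had 45.3 and 53.2 FPKM (Fix T2), 64.4 and 51.5 FPKM (Fix T3), and 60.3 and 49.9 FPKM (Fix T4). The mean of the 8 seed-grown libraries was 53.8 ± 5.98 FPKM against 44.2 ± 2.93 FPKM in the 4 root-kept libraries (SD), a log2 difference of 0.27 (95% interval -0.03 to 0.57, limma adjusted p = 0.294), and the libraries overlapped. Rescaling put this difference at 0.43 (0.07 to 0.80, limma adjusted p = 0.193). The mean of the Fix groups stood 0.27 above CY84 (-0.11 to 0.64, limma adjusted p = 0.506), 0.43 above it after rescaling and 0.17 above it without CY84 replicate 1.

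OPR7, the reductase that makes the jasmonic acid precursor in the peroxisome, had 34.3 and 38.7 FPKM (CY84), 34.7 and 35.6 FPKM (Fix T0), and 34.2 and 41.7 FPKM (Fix T1). It had 30.3 and 23.5 FPKM (Fix T2), 31.7 and 44.7 FPKM (Fix T3), and 45.0 and 40.9 FPKM (Fix T4). The Fix T2 pair lay below the other 10 libraries. JAR1, the enzyme that forms jasmonoyl-isoleucine, likewise had its lowest pair in Fix T2, with 13.1 and 11.2 FPKM against 14.7 to 24.0 FPKM elsewhere, and a log2 difference from Fix T0 of -0.52 (95% interval -1.10 to 0.06, limma adjusted p = 0.306). All tested genes had a median log2 difference of -0.28 in this comparison, and rescaling moved that median to 0.04. Rescaling also moved the difference of JAR1 to -0.13 and that of OPR7 from -0.39 to 0.0089 (limma adjusted p = 0.392 and 0.988), so the direction of OPR7 turned with the scaling. Without Fix T2 replicate 2 the OPR7 difference was -0.21.

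HPL3 diverts fatty acid hydroperoxides into green leaf volatiles. It had 22.9 and 24.0 FPKM (CY84), 29.3 and 25.2 FPKM (Fix T0), and 20.9 and 21.4 FPKM (Fix T1). It had 34.4 and 36.4 FPKM (Fix T2), 39.0 and 18.9 FPKM (Fix T3), and 28.1 and 18.5 FPKM (Fix T4). The Fix T2 pair was high and close together, and the Fix T3 pair held the highest of the 12 values and the second lowest. HPL3 exceeded AOS1 in every library, by 2.76 to 26.0 times, and AOS2 by 3.10 to 212 times, with the largest quotients over AOS2 in Fix T2 (86.2 and 212) and the smallest in Fix T4 (3.66 and 3.10). The quotients over AOS2 in Fix T2 rest on AOS2 values of 0.399 and 0.171 FPKM, whose counting error is unknown.

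**Figure D3:**
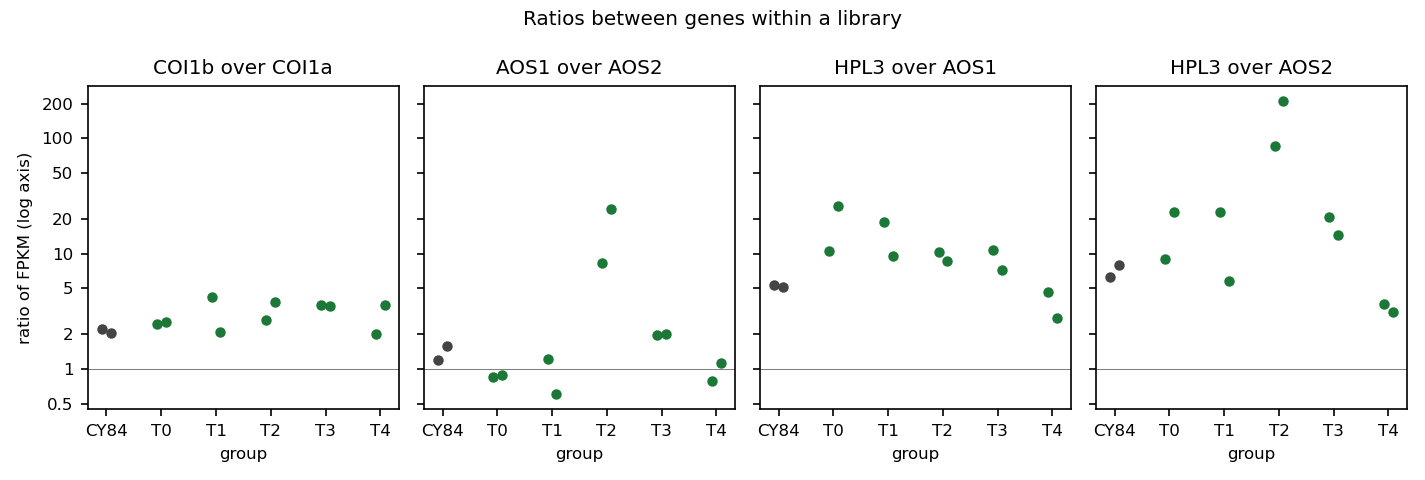
Ratio of FPKM between 2 genes within each library, on a log axis shared by the 4 panels; grey is CY84 and green the Fix generations T0 to T4. COI1b exceeded COI1a by 2.01 to 4.18 times throughout, while AOS1 over AOS2 reached 8.26 and 24.6 and HPL3 over AOS2 reached 86.2 and 212 in Fix T2. AOS2 had only 0.399 and 0.171 FPKM in Fix T2.

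Both receptor genes were expressed in every library, and COI1b was the more abundant in 12 of 12. COI1b had 86.8 and 79.8 FPKM (CY84), 85.0 and 83.2 FPKM (Fix T0) and 108 and 91.3 FPKM (Fix T1). It had 80.8 and 97.5 FPKM (Fix T2), 107 and 124 FPKM (Fix T3), and 82.3 and 101 FPKM (Fix T4). Only Fix T1 and Fix T3 stood wholly above both root-kept groups, and the difference of Fix T3 from Fix T0 was 0.45 (95% interval -0.03 to 0.93, limma adjusted p = 0.332) and after rescaling 0.70 (0.09 to 1.32, limma adjusted p = 0.245). COI1a had 39.2 and 39.0 FPKM (CY84), and in the Fix line it ranged from 25.6 FPKM in Fix T2 replicate 2 to 43.2 FPKM in Fix T1 replicate 2. The mean of the Fix groups differed from CY84 by 0.19 for COI1b (-0.18 to 0.56, limma adjusted p = 0.622) and by -0.28 for COI1a (-0.75 to 0.20, limma adjusted p = 0.571). After rescaling these differences were 0.36 and -0.11.

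The ratio of COI1b to COI1a was 2.21 and 2.05 in CY84 and 2.44 and 2.57 in Fix T0. It was 3.57 and 3.53 in Fix T3, and it was split in Fix T1 (4.18 and 2.11), Fix T2 (2.69 and 3.81) and Fix T4 (2.01 and 3.60). The sources used here do not say how reads shared by the 2 related genes were assigned, so their ratio is uncertain to that extent.

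MYC2, a bHLH transcription factor that is released when JAZ proteins are destroyed, had 20.2 and 19.8 FPKM (CY84) and 15.3 and 13.3 FPKM (Fix T0). It had 10.04 and 16.7 FPKM (Fix T1), 12.7 and 9.27 FPKM (Fix T2), 20.3 and 17.0 FPKM (Fix T3), and 15.2 and 17.5 FPKM (Fix T4). Of the 10 Fix libraries 9 lay below both CY84 libraries, and Fix T3 replicate 1 lay above them. The mean of the Fix groups stood at -0.45 relative to CY84 (95% interval -0.92 to 0.02, limma adjusted p = 0.398), where the median of all tested genes was -0.13. It was -0.29 after rescaling, which brings that median to near 0, and -0.28 with Fix T1 and T2 dropped.

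The libraries of a pair of groups were also compared by overlap alone. In the comparison of Fix T0 with CY84, 4 of 9 genes had libraries that did not overlap, against 44.6% of all tested genes. The corresponding counts were 3 of 9 against 29.8% for Fix T1 with Fix T0, 7 of 9 against 52.2% for Fix T2 with Fix T0, 4 of 9 against 56.5% for Fix T3 with Fix T0 and 4 of 9 against 45.3% for Fix T4 with Fix T0. They were 5 of 9 against 50.7% for Fix T4 with CY84, 0 of 9 against 7.44% for the Fix mean with CY84 and 0 of 9 against 1.65% for the seed-grown with the root-kept groups. In Fix T2, the 7 genes were AOS1 and HPL3 above Fix T0, and AOS2, OPR7, JAR1, COI1a and MYC2 below it. These states hold for FPKM without rescaling, where the median log2 difference of all tested genes was -0.28 for Fix T2 with Fix T0. Median-of-ratios factors were 0.899 and 0.727 in Fix T2 and 1.11 and 1.04 in Fix T0. Overlap was not counted after rescaling, so which genes overlap, and in which direction, may turn with the scaling. The comparisons with Fix T0 share its 2 libraries, so they are not independent of each other.

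Other genes of the route, from a list of 18, held 1 gene that passed, in 2 comparisons. The list holds lipoxygenases, a lipase, CYP74 relatives, beta-oxidation enzymes, JAR2, the jasmonate methyltransferase JMT1, the jasmonoyl-isoleucine oxidase CYP94C2b, the receptor gene COI2 and the factors bHLH148 and JAMYB. In all, 12 of the 18 were tested, and the other 6 stayed at or below 1.06 FPKM. One gene, HI-LOX (LOC_Os08g39840), a chloroplast lipoxygenase that acts ahead of the synthases, passed. HI-LOX had 15.2 and 12.7 FPKM (CY84), 21.1 and 19.2 FPKM (Fix T0), and 11.1 and 22.7 FPKM (Fix T1). It fell to 2.55 and 2.35 FPKM (Fix T2), and stood at 19.6 and 22.6 FPKM (Fix T3) and at 17.3 and 38.0 FPKM (Fix T4). The log2 difference of Fix T2 from Fix T0 was -2.61 (SE 0.37, limma adjusted p = 0.0243), and the F test had an adjusted p = 0.00938. Both Fix T2 libraries lay below the other 10, as those of AOS2, OPR7 and JAR1 did. So did those of the beta-oxidation gene AIM1 (23.6 and 15.1 FPKM) and of JAR2 (4.42 and 6.14 FPKM) of the wider list. How many of all tested genes do so was not counted, and the median log2 difference of all tested genes was -0.28 for Fix T2 with Fix T0.

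The HI-LOX call for Fix T2 with Fix T0 held in 11 of 18 alternatives. It was lost without CY84 replicate 1 (limma adjusted p = 0.0662) or replicate 2 (0.0642), without Fix T0 replicate 1 (0.407) or replicate 2 (0.202), without Fix T2 replicate 2 (0.165), with no filter on low values (0.0759) and with the 2 groups alone (0.200). Its F test call was lost with no filter (0.0567), without Fix T2 replicate 2 (0.0636) and when Fix T1 and T2 were both dropped (0.227). The 12 tested genes of the list had a median log2 difference of -0.44 for Fix T2 with Fix T0, beside a median of -0.28 for all tested genes. Of the 12, 1 passed in this comparison, against 0.0901% of all tested genes, and 1 in the F test, against 1.91%.

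Among 12 JAZ genes, which encode the repressors that COI1 removes and of which 9 were tested, JAZ10 and JAZ12 were higher in Fix T4. JAZ10 (LOC_Os03g08330) had 1.61 and 1.10 FPKM (CY84), 0.874 and 0.705 FPKM (Fix T0), at most 3.60 FPKM in Fix T1 to T3, and 11.1 and 13.0 FPKM (Fix T4). For Fix T4 with Fix T0 it passed (2.86 on the log2 scale, SE 0.42, adjusted p = 0.00791 from limma), for Fix T4 with CY84 (2.48, SE 0.42, limma adjusted p = 0.0113) and in the F test (limma adjusted p = 0.0207). JAZ12 (LOC_Os10g25290) had 0.357 and 0.671 FPKM (CY84) and 2.39 and 4.49 FPKM (Fix T4). It passed for Fix T4 with CY84 (log2 difference 1.52, SE 0.33, limma adjusted p = 0.0402). Of the 9 tested JAZ genes, 1 passed for Fix T4 with Fix T0, against 1.05% of all tested genes. For Fix T4 with CY84 2 passed, against 1.88%, and in the F test 1, against 1.91%. Of all genes passing, the higher ones made up 93.0% for Fix T4 with Fix T0 and 89.3% for Fix T4 with CY84. JAZ10 and JAZ12 had their highest pair of libraries in Fix T4, as AOS1 and AOS2 did. So did JAZ7 (78.2 and 89.5 FPKM), OPCL1 of the wider list (12.2 and 13.6 FPKM) and the untested JAZ9 and EG1. How many of all tested genes do so was not counted, and their median log2 difference of Fix T4 from Fix T0 was 0.16. No other JAZ gene passed in any of the 9 comparisons.

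The JAZ10 and JAZ12 calls between 2 groups were lost when either library of either group was left out, while the estimates kept their direction. Over the alternatives the JAZ10 difference ran from 2.63 to 3.77 for Fix T4 with Fix T0 and from 2.28 to 3.08 for Fix T4 with CY84. The JAZ12 difference for Fix T4 with CY84 ran from 1.17 to 2.51. JAZ10 lies beside JAZ9 and JAZ11 in the identifiers' order, and nothing read here says how reads shared by such neighbours were assigned. The JAZ10 call for Fix T4 with Fix T0 did not hold when Fix T0 replicate 1 (limma adjusted p = 0.0763) or replicate 2 (0.124) was dropped nor when Fix T4 replicate 1 (0.0598) or replicate 2 (0.121) was. For Fix T4 with CY84 it was lost without CY84 replicate 1 (0.0690) or replicate 2 (0.142), without Fix T4 replicate 1 (0.0622) or replicate 2 (0.129), with a pseudocount of 0.1 (0.0550) and with no filter (0.0528). Its F test call held in 10 of 18 alternatives and was lost without either CY84 library (0.0565 and 0.0649), either Fix T0 library (0.0600 and 0.0637) and either Fix T4 library (0.125 and 0.179), with a pseudocount of 0.1 (0.0754) and with no filter (0.101). JAZ12 passed in 8 of 19 alternatives, and its adjusted p ranged from 0.0221 to 0.375. It was lost without either library of CY84, Fix T0, Fix T3 or Fix T4, with a pseudocount of 0.1, with no filter and on rescaling (0.108).

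**Figure D4:**
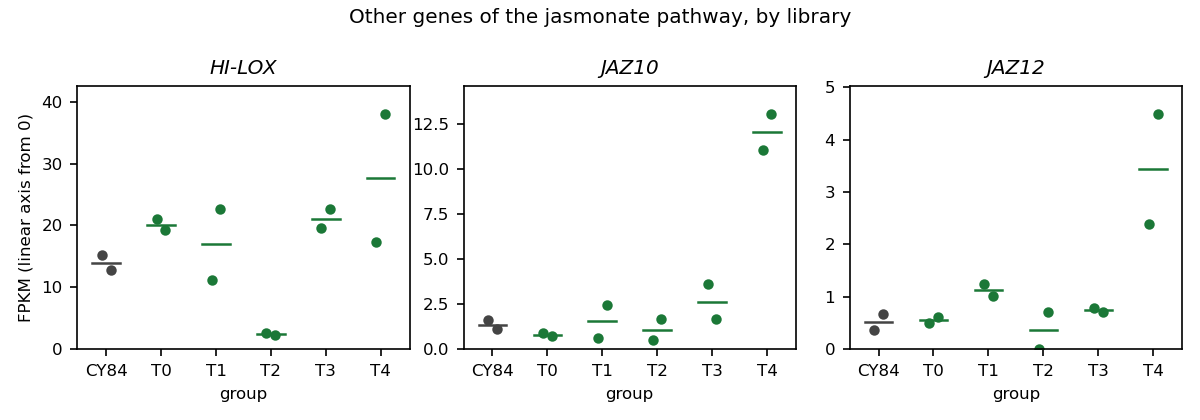
FPKM per library (points) and group mean (lines) of 3 other jasmonate genes that passed a comparison, on linear axes from 0; grey is CY84 and green the Fix generations T0 to T4. HI-LOX had 2.55 and 2.35 FPKM in Fix T2, and JAZ10 had 11.1 and 13.0 FPKM in Fix T4.

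Across the 12 libraries the 9 genes did not vary as one block. Pearson r of log2(FPKM + 1) is given as a description, since the 2 libraries of a group share their source and all genes of a library share its scaling. The 4 highest values were 0.72 for OPR7 with JAR1, 0.72 for AOS2 with OPR7, 0.71 for AOS2 with JAR1 and 0.65 for AOS2 with MYC2. AOS1 with AOS2 reached 0.51, and AOS1 was near 0 with OPR7 (0.08) and JAR1 (-0.01). HPL3 ran against the reductase and the conjugating enzyme, with -0.70 for OPR7 and -0.55 for JAR1, and COI1a against COI1b with -0.41. Among OPR7, JAR1, COI1a, MYC2 and AOS2 every pair had r between 0.53 and 0.72. These genes were grouped by the r values themselves, and r for pairs of other tested genes is not given for comparison. The values come from FPKM without rescaling, and the part of the library scaling in them was not tested.

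**Figure D5:**
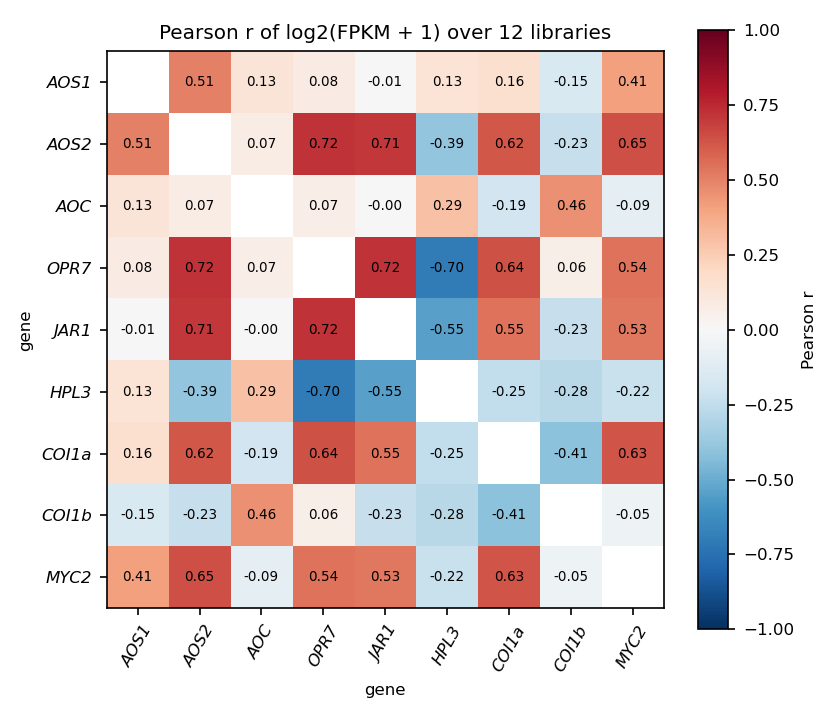
Pearson r of log2(FPKM + 1) over the 12 libraries for each pair of the 9 genes, on a colour scale from -1 to 1. The highest value, 0.72, is that of OPR7 with JAR1 and the lowest, -0.70, that of OPR7 with HPL3.

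For each gene the most alike gene of the jasmonate lists was also read off, again as a description over 12 libraries. It was the highest r among the tested genes of the lists: 9 members, 12 genes of the wider list and 9 JAZ genes, the gene itself left out. A high rank thus follows in part from taking the best of many, and no test of the ranks was made. MYC2 was most like JAZ7 (r = 0.87), a repressor gene that ranked number 8 among the 18870 other tested genes. AOS2 was most like OPCL1 (r = 0.90, rank 141), which activates a precursor for beta-oxidation, and OPR7 was most like JAZ6 (r = 0.86, rank 99). JAR1 was most like the beta-oxidation gene AIM1 (r = 0.88, rank 242), and AOS1 was most like JAZ10 (r = 0.69, rank 375). For AOC, COI1a and COI1b the nearest were JAZ11 (r = 0.71, rank 435), OPCL1 (r = 0.70, rank 586) and LOC_Os03g49350, a lipoxygenase gene (r = 0.72, rank 319). HPL3 had no close partner in the lists, with JAZ8 nearest at r = 0.29 and rank 1961.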

How the data were processed

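The authors deposited 1 table of FPKM, with 1 column for each of the 12 RNA libraries. Tools named, per the submitters' processing notes, are HISAT2 2.1.0, featureCounts 1.6.4, Bismark 0.23.0, fastp, StringTie 1.3.4d, Trimmomatic 0.39, DESeq2 1.30.1 and FastQC. The step each was used for, the genome build and strand handling are not given in the sources used here. The 20 unnamed columns, with 21 values in 2 genes, were left out; the 12 bisulfite samples are not analysed here.

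Genes with at least 1 FPKM in at least 2 libraries were tested. Values were taken as log2(FPKM + 1), which understates differences of low genes, and limma 3.58.1 (R 4.3.3) fitted 1 mean for each group, leaving 6 residual degrees of freedom, with a trended prior. All groups shared 1 estimate of the spread. P-values were adjusted over all tested genes. The fit was tested on simulated data in which each gene varied independently, without shifts of whole libraries. Changes were set only in genes of a higher level than AOS1 and AOS2, so the simulation does not cover genes as low as these. Alternatives were a pseudocount of 0.1, no filter, median-of-ratios rescaling, a replicate block, no trended prior, compared groups alone, leaving out Fix T1 and T2, and leaving out each library.

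Members and lists were chosen with earlier results of these data known. The table holds MSU identifiers without names, and names were paired by hand. Of the 9 members' names, 7 were found in the RefSeq annotation of assembly ASM3414082v1, all 7 on the identifier's chromosome; HPL3 and MYC2 were not found. Of the wider list 7 of 18 were found and of the JAZ list 12 of 12, all on the right chromosome. Lipoxygenase genes whose names differ in the annotation are given by identifier, and a seed marker was left out for that reason. From the wider list and the JAZ list the genes that passed were named, up to 4 a comparison by size, and the gene most like each member.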

Additional observations from a re-analysis of the deposited data

Results flagged for a closer look

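Among the 9 genes and the 3 other genes that passed a comparison, single libraries were compared with the rest of the Fix, seed-grown and root-kept libraries by Dixon's test at the 95% level, 36 times in all, where chance gives about 1 in 20. AOC in CY84 replicate 1, at 39.9 FPKM, lay apart from the other root-kept libraries, which had 45.1 to 46.1 FPKM. JAZ12 in Fix T4 replicate 2, at 4.49 FPKM, lay above the other 9 Fix libraries, of which Fix T4 replicate 1 was the next at 2.39 FPKM. JAZ12 was checked because it had passed as higher in Fix T4, so its flag follows in part from that choice. In all, 2 of the 36 checks were flagged, and the chance rate assumes like libraries, whereas these sets pool different groups.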

How the results depend on the processing

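The count of members that passed was 0 as reported in all 9 comparisons, and 162 of 166 recomputed counts were 0 as well. With Fix T1 and T2 both dropped it was 1 for Fix T4 with Fix T0 (AOS1) and 2 for the F test (AOS1 and AOS2). On leaving out 1 library the F test count ranged from 0 to 2, and for the other comparisons it was 0. Apart from OPR7 for Fix T2 with Fix T0, which went from -0.39 to 0.0089 on rescaling, no log2 difference given for a gene changed direction under any alternative run; of the recomputed values, 376 kept their side of the threshold, 6 passed anew and 39 no longer passed. The cause of these changes was not tested.

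The number of all tested genes that passed depended strongly on the libraries used. It was 17 for Fix T0 with CY84 and ranged from 5 (without CY84 replicate 2) to 36 (with Fix T1 and T2 dropped). The ranges were 3 to 152 around 15 for Fix T1 with Fix T0, 3 to 1066 around 17 for Fix T2, 6 to 1628 around 55 for Fix T3 and 30 to 421 around 199 for Fix T4. They were 34 to 897 around 355 for Fix T4 with CY84, 10 to 509 around 141 for the Fix mean, 75 to 1777 around 391 for seed-grown with root-kept groups and 108 to 2813 around 360 for the F test. Rescaling moved the median of all tested genes by 0.32 for Fix T2 with Fix T0, 0.20 for Fix T3, -0.17 for Fix T4, -0.12 for Fix T4 with CY84, and 0.13 for the Fix mean and for the seed-grown groups. Of the genes passing, the higher ones made up 64.7% before and 52.6% after rescaling for Fix T0 with CY84 and 23.5% before and 52.9% after for Fix T2 with Fix T0.

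No general pairing of libraries by replicate number was seen: deviations from the group means correlated at over 0.1 for 2 of 15 group pairs (range -0.30 to 0.19). A pairing weaker than the differences in scaling between libraries could be missed by this check. With a replicate block, 0 members passed in each of the 9 comparisons; the adjusted p was 0.155 for AOS1 in Fix T4 with Fix T0 and 0.103 for AOS2 in the F test. The block took the count of all genes from 199 to 153 for Fix T4 with Fix T0, from 17 to 11 for Fix T2 with Fix T0 and from 360 to 220 for the F test. When a library was left out of a pair, the lone one was assumed to vary like the other groups. Without counts, the precision of values near 1 FPKM, as for AOS1 and AOS2, is unknown.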
